A study of Homo sapiens with 8 samples.

Results

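The genes described here encode the hnRNP proteins, the SR proteins and their close relatives, which bind pre-mRNA and set which exons are kept. They were taken by name from a gene table of 25066 genes: every gene whose symbol begins with HNRNP or HNRP, every gene named SFRS with a number, the polypyrimidine tract binding genes PTBP1, PTBP2 and ROD1 (now PTBP3), and TRA2A and TRA2B. This gave 44 genes, of which 22 carried an hnRNP name, 17 an SFRS name, 3 belonged to the PTB family and 2 to the TRA2 family. Of the 17 SFRS genes, 10 now have an SRSF symbol, and 7 have other symbols: SFRS8 (SFSWAP), SFRS12 (SREK1), SFRS14 (SUGP2), SFRS15 (SCAF4), SFRS16 (CLASRP), SFRS17A (AKAP17A) and SFRS18 (PNISR). The 2 pseudogenes and 2 genes of SFRS-interacting proteins that the names also caught were left out.

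The RNA came from TMD8, an established human lymphoma line (diffuse large B cell lymphoma of the activated B cell type) that depends on signals from its B cell receptor. All cells carried Cas9 delivered by lentivirus, and stably expressed either a guide RNA against KLHL14 (sgKLHL14, genotype given as KLHL14(-/-)) or a control guide (sgCTRL, genotype given as KLHL14(+/+)). Each was given 2 nM ibrutinib, a covalent inhibitor of the kinase BTK downstream of that receptor, or the solvent DMSO for 24 h. The 4 groups of 2 libraries were sgKLHL14 with ibrutinib, sgCTRL with ibrutinib, sgKLHL14 with DMSO and sgCTRL with DMSO. Whether the edited cells were 1 clone or a pool is not given in the sources used here, and the labels do not tell whether replicate libraries were grown apart. The p-values then weigh differences only against the spread of these libraries, which may be technical.

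As background, hnRNP proteins coat nascent transcripts, and several of them, such as PTBP1 and HNRNPA1, are best known for keeping exons out of the mRNA, whereas SR proteins, with domains rich in arginine and serine, mostly help exons to be recognised. HNRNPLL, listed in the table under its older symbol HNRPLL, is the closest relative of HNRNPL, and both recognise CA-rich RNA. HNRNPLL is known for silencing the variable exons of PTPRC, the gene of the phosphatase CD45, in activated T cells, and in mice for a part in the RNA processing of plasma cells. The values are levels per gene, so no exon use was measured.

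The libraries held 12333876 to 23467110 reads, and 43 of the 44 genes were tested. HNRNPCL1, a copy of HNRNPC, had at most 4 reads in a library and stayed below the minimum level of 10 reads in a library of median depth. The 43 others had 116 to 71004 reads in each library, and the SD between the 2 libraries of a group had a median of 0.033 on the log2 scale. KLHL14 mRNA was not lower with its guide: its log2 level was 13.16 and 13.16 in sgKLHL14 cells against 12.30 and 12.30 in sgCTRL cells in ibrutinib, and 12.19 and 12.33 against 12.07 and 12.06 in DMSO. An edit of the coding sequence need not lower the mRNA, so this level does not check the edit, and the groups are called by their labels. The 5 B cell genes used to check the line, MS4A1, CD79A, CD79B, CD22 and PAX5, were all detected in all libraries. Their summed level, in CPM of the recovered reads, was 4067 to 4245 in sgKLHL14 cells with ibrutinib, 4260 to 4295 in sgCTRL cells with ibrutinib, 2817 to 2884 in sgKLHL14 cells with DMSO and 2976 to 3056 in sgCTRL cells with DMSO. All 5 were higher with ibrutinib with either guide. Between the guides CD22 alone passed, in DMSO (0.24), and that call was lost without the filter on level (adjusted p = 0.191), without the variance trend (0.296), with median scaling (0.064) and without either sgCTRL DMSO library (0.226 and 0.121), replicate 1 of sgKLHL14 DMSO (0.255) or either sgCTRL ibrutinib library (0.0972 and 0.0969). The T cell genes CD3D and CD3E had 0 reads in every library, and CD3G, CD2, the myeloid gene LYZ and the epithelial genes EPCAM and KRT18 had at most 1 read. All 6 T cell genes summed to 3.39 to 3.89 CPM with ibrutinib and 1.68 to 2.09 CPM with DMSO, the 5 myeloid genes to at most 3.38 CPM and the 4 epithelial genes, mostly KRT8 and CDH1, to 48.6 to 61.1 CPM.

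HNRPLL was named in advance as the gene to set against the other members. Its promoter is shown with those of its paralog HNRNPL and of GALM, its immediate neighbour. These are the 3 genes whose levels are set against each other below. Each stretch runs from 250 bases before to 50 after the gene's start in RefSeq on GRCh38.p14, and capitals mark matches to a kappaB-like pattern (GGG followed after any 5 bases by CC) on either strand, where neighbouring matches may overlap.
HNRNPLL, chr2:38602879-38603178, minus strand: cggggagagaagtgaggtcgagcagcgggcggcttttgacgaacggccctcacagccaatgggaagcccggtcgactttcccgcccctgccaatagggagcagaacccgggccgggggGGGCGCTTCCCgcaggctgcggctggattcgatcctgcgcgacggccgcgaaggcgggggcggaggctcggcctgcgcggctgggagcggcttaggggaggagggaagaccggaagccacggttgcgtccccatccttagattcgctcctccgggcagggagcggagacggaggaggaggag
GALM, chr2:38665864-38666163, plus strand: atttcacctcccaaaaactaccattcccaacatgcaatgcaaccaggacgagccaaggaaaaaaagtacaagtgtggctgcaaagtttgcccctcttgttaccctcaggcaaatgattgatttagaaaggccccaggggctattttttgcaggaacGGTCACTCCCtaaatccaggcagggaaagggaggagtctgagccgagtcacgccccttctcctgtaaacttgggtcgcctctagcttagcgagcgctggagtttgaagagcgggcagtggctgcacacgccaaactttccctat
HNRNPL, chr19:38852298-38852597, minus strand: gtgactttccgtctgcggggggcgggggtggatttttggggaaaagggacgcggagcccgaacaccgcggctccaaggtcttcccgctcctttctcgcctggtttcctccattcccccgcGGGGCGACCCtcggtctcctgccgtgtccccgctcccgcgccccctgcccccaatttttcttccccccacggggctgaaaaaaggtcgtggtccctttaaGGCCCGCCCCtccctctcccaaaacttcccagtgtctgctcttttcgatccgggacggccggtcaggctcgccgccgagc
The HNRNPLL promoter held 2 overlapping matches, the first at position -132 from the gene's start. The GALM promoter held 1 and this HNRNPL promoter held 2. RefSeq lists a second HNRNPL start, at chr19:38849937-38850236 for the same window on the minus strand, which held 3 matches and is not shown. The pattern was found in 58.7% of 35116 human promoters of that length, so a match is common. GAAA followed after any 2 bases by GAAA (3.57% of the promoters), GGAA followed after any 2 bases by GAAA (2.82%) and TGANTCA (7.71%), searched on both strands, had no match in these 4 windows.

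HNRPLL was lower in ibrutinib and lower with the KLHL14 guide, and lowest where the 2 were combined. Its log2 level was 7.95 and 7.99 in sgKLHL14 cells with ibrutinib, 9.75 and 9.78 in sgCTRL cells with ibrutinib, 9.81 and 9.86 in sgKLHL14 cells with DMSO and 10.64 and 10.71 in sgCTRL cells with DMSO. These levels rested on 152 and 116 reads, 527 and 435 reads, 768 and 763 reads and 795 and 1443 reads, in the same order of groups. No library of 1 group overlapped those of another, but sgCTRL cells with ibrutinib and sgKLHL14 cells with DMSO lay closer together than the SE of 0.083 of a difference between 2 groups. In RNA of whole cultures, fewer cells that express a gene and less RNA per cell cannot be told apart.

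**Figure D1:**
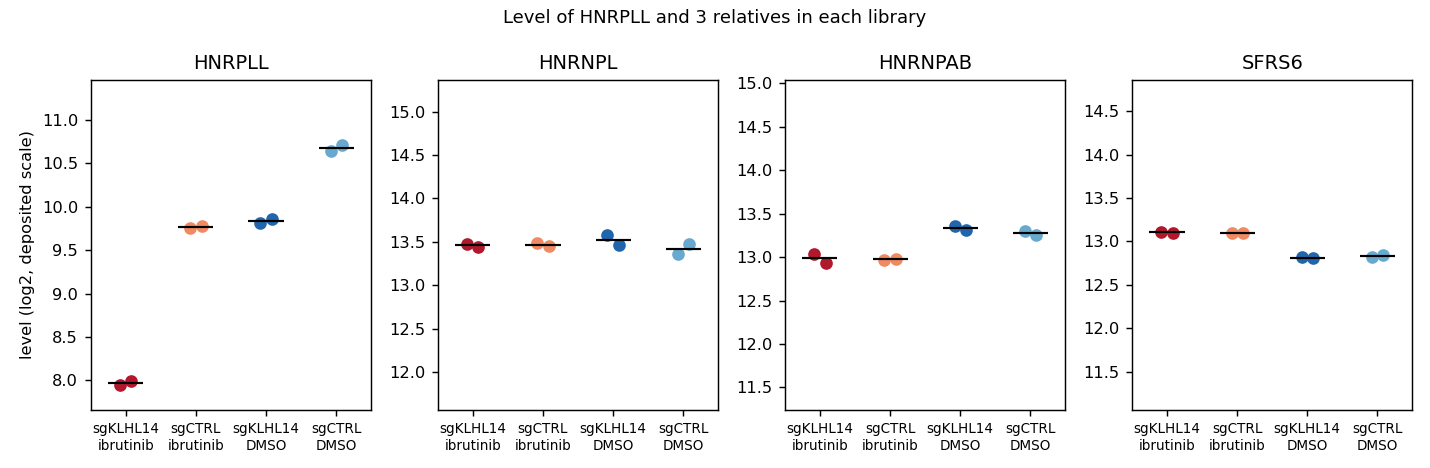
Level of HNRPLL, HNRNPL, HNRNPAB and SFRS6 (log2, deposited scale) in each of the 8 libraries, as points, with the group mean as a line; every panel spans the same number of log2 units. HNRPLL lies at 7.95 to 7.99 in sgKLHL14 cells with ibrutinib and at 10.64 to 10.71 in sgCTRL cells with DMSO, while the points of the 3 relatives stay within a narrow band.

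HNRPLL was 3.66-fold lower with ibrutinib than with DMSO in sgKLHL14 cells (log2 change -1.87, 95% interval -2.04 to -1.70, limma adjusted p = 5.5e-12) and 1.88-fold lower in sgCTRL cells (log2 change -0.91, interval -1.08 to -0.73, limma adjusted p = 5.92e-08). With ibrutinib present, HNRPLL was 3.48-fold lower in sgKLHL14 than in sgCTRL cells (log2 difference -1.80, limma adjusted p = 4.02e-11), the 7th lowest difference of 12682 genes tested. In DMSO it was 1.79-fold lower in sgKLHL14 cells (log2 difference -0.84, limma adjusted p = 5.35e-06), the 46th lowest. These 4 calls held in all 18 alternative analyses, with log2 values of -1.90 to -1.81, -0.96 to -0.87, -1.84 to -1.74 and -0.94 to -0.80.

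The fall under ibrutinib was itself larger in sgKLHL14 than in sgCTRL cells. The difference between the responses was -0.96 on the log2 scale (95% interval -1.21 to -0.72, limma adjusted p = 0.00133). Over all genes 0.0237% passed this test, 0.0158% higher and 0.00789% lower. That is 3 genes, and HNRPLL was the only one of them with a negative difference. The others were KLHL14 at 0.66 and CLCN4, a chloride and proton exchanger, at 0.84. With an unadjusted p under 0.05 there were 721 genes. The call of HNRPLL did not pass when genes of low level were kept in the fit (adjusted p = 0.0609) or when the variance prior did not follow the level (adjusted p = 0.155). Leaving out each library in turn gave differences of -1.0 to -0.93, with adjusted p = 0.00465 to 0.0184.

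HNRNPL, the paralog, did not follow HNRPLL. Its log2 level was 13.48 and 13.44 in sgKLHL14 cells with ibrutinib, 13.48 and 13.45 in sgCTRL cells with ibrutinib, 13.58 and 13.46 in sgKLHL14 cells with DMSO and 13.36 and 13.47 in sgCTRL cells with DMSO. The ibrutinib and DMSO libraries overlapped with either guide. The log2 change with ibrutinib was -0.06 in sgKLHL14 cells (95% interval -0.19 to 0.07) and 0.05 in sgCTRL cells (interval -0.07 to 0.18), and it passed in neither. Neither guide difference nor the difference in response passed for HNRNPL.

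The log2 level of HNRPLL minus that of HNRNPL in the same library was -5.53 and -5.45 in sgKLHL14 cells with ibrutinib, -3.73 and -3.67 in sgCTRL cells with ibrutinib, -3.77 and -3.60 in sgKLHL14 cells with DMSO and -2.72 and -2.76 in sgCTRL cells with DMSO. Over guides, it averaged -4.60 ± 1.03 with ibrutinib and -3.21 ± 0.55 with DMSO (SD, n = 4 each), a difference of -1.39 that did not pass a two-sided exact permutation test (p = 0.0857, where the smallest possible is 0.0286). The SDs and this test hold both guides together, so they include the difference between the guides. Permuted within guides, the exact test gave p = 0.0556, the smallest possible there, so it could not pass. The sgCTRL ibrutinib and sgKLHL14 DMSO libraries overlap in this measure. Refitting all genes relative to HNRNPL, an analysis chosen after the data were seen, gave HNRPLL -1.81 for ibrutinib in sgKLHL14 cells and -0.96 in sgCTRL cells, -1.79 for the guides in ibrutinib and -0.94 in DMSO. The difference in response was -0.85 there, and all 5 passed (limma adjusted p = 8.51e-15, 1.05e-08, 8.83e-14, 4.14e-07 and 0.00947).

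Among all 43 genes, HNRPLL had the widest spread over the groups. Its highest and lowest group means were 2.71 log2 units apart. The next were HNRNPAB at 0.36, HNRNPC at 0.35, PTBP2 at 0.34, SFRS18 at 0.33 and HNRNPH3 at 0.32, and HNRNPU was last at 0.033. The median level of the 42 relatives ran only from 12.91 to 12.97 over the 8 libraries.

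**Figure D2:**
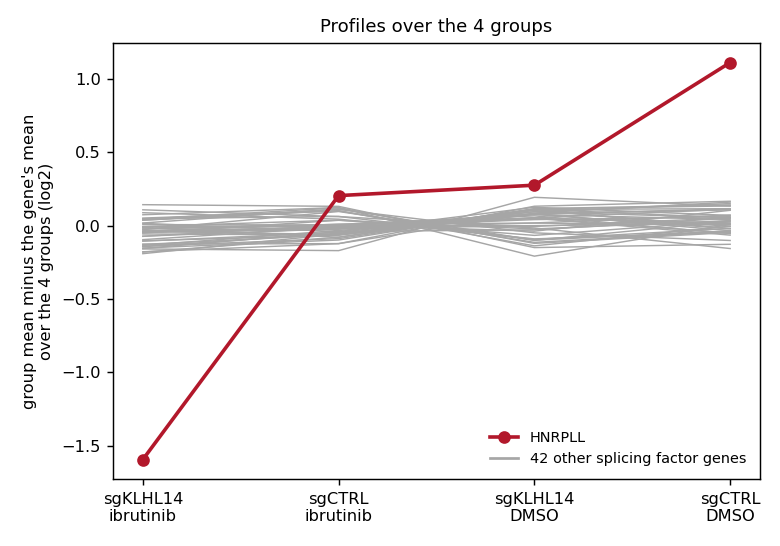
Group mean minus the gene's mean over the 4 groups (log2) for HNRPLL (red) and the 42 relatives (grey), with the groups along the horizontal axis. The range of HNRPLL is 2.71 log2 units, and the widest range among the relatives is 0.36.

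HNRPLL was also among the least abundant of the family. Per kb of annotated exon, with lengths from GENCODE v29, it stood at 49.2 ± 0.9 in sgKLHL14 cells with ibrutinib, 43rd of the 44 genes, and at 321.5 ± 11.8 in sgCTRL cells with DMSO, 41st (linear scale, SD, n = 2 each). In sgCTRL cells with DMSO the highest levels per kb were those of HNRNPA2B1 (14121 ± 332), HNRNPA1 (11651 ± 228) and HNRNPK (11016 ± 275), general hnRNP proteins of the nucleus. HNRNPL stood at 4351 ± 235, 11th, and SFRS1, the founding SR protein, at 5654 ± 44, 6th. PTBP2 at 186.4 ± 1.6 and SFRS2B (SRSF8) at 135.9 ± 1.7 were below HNRPLL. The annotation behind the counts is not given in the sources used here, so these levels depend on the lengths assumed.

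Many of the relatives differed by small amounts with ibrutinib, in a response in which 38.9% of all genes passed in sgKLHL14 cells (19.7% higher, 19.3% lower) and 34.8% in sgCTRL cells (17.9% higher, 16.9% lower). Of the 43 splicing factor genes, 20 passed in sgKLHL14 cells, which is 46.5%, with 6 higher and 14 lower. With voom on the recovered reads, and so with TMM scaling, the 20 calls there were 2 higher and 18 lower. In sgCTRL cells 12 passed, which is 27.9%, with 3 higher and 9 lower, and with voom 2 higher and 11 lower. The shares of all genes with voom, or in the fits named next, were not counted. The moves from the main counts are then not shown to be particular to these genes. In sgKLHL14 cells the calls were 2 higher and 10 lower without the filter on level, 2 higher and 9 lower without the variance trend, and 2 higher and 13 lower without either sgCTRL ibrutinib library. The 2 comparisons share no library, but both use the same estimate of each gene's spread, so their calls are not independent. In both, 11 genes passed, all in the same direction: 55.0% of the calls in sgKLHL14 cells and 91.7% of those in sgCTRL cells. The share of all genes that passed in both was not counted, so this overlap is not shown to be particular to these genes. The median log2 change of the 42 relatives was -0.090 in sgKLHL14 cells and -0.049 in sgCTRL cells, against 0.011 and 0.018 over all genes. A further 22 genes passed with neither guide: HNRNPA0, HNRNPA1L2, HNRNPF, HNRNPK, HNRNPL, HNRNPU, HNRNPUL2, HNRPDL, ROD1, TRA2B and 12 SFRS genes (1, 2, 2B, 3, 7, 8, 9, 11, 12, 15, 16 and 17A).

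**Figure D3:**
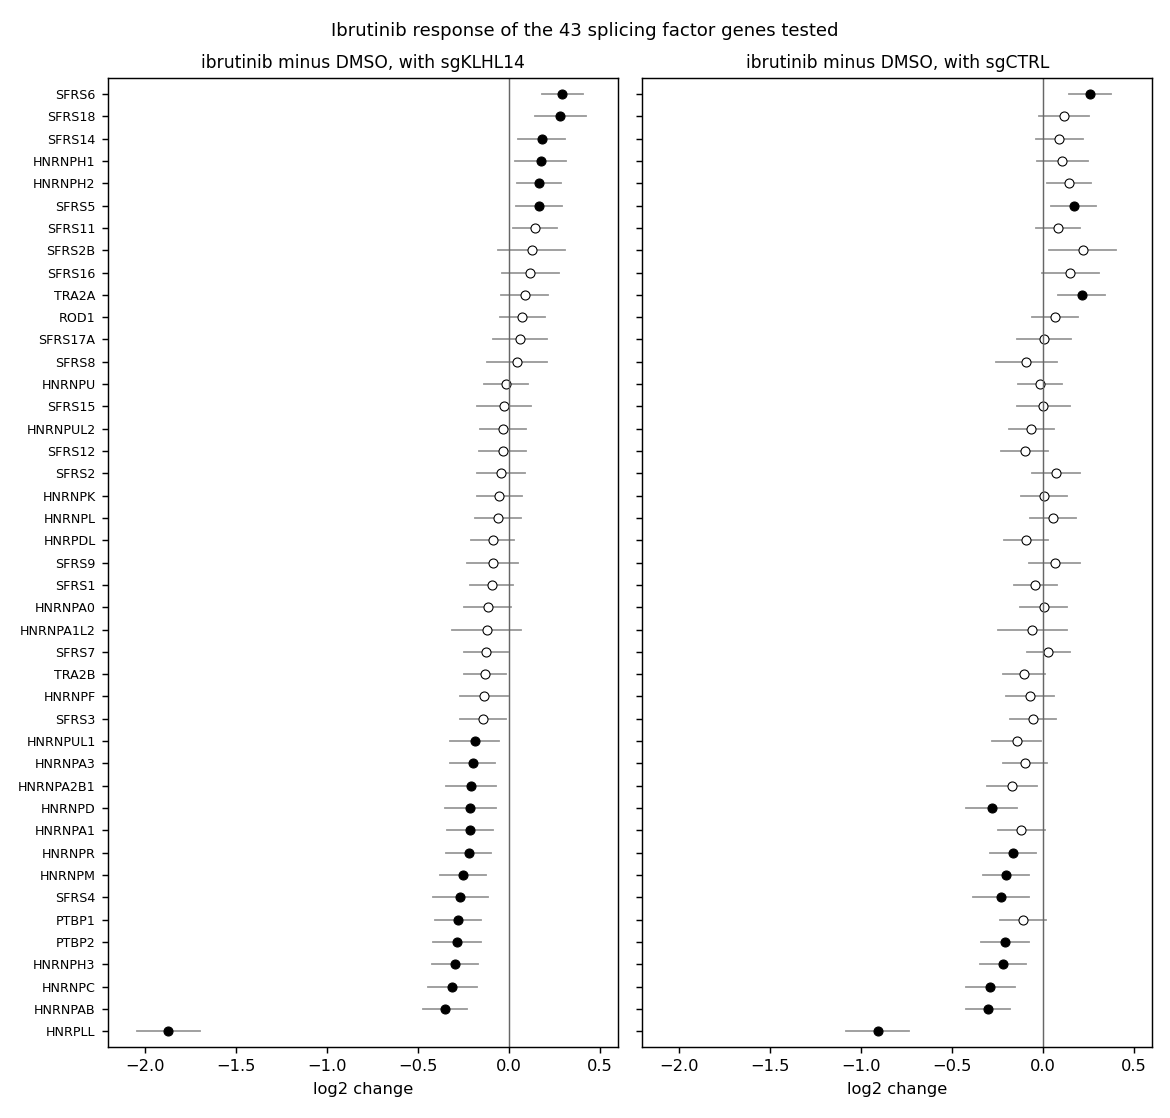
Log2 change with ibrutinib against DMSO for the 43 genes, in sgKLHL14 cells (left) and sgCTRL cells (right), with 95% intervals from limma; filled points have an adjusted p under 0.05. HNRPLL lies at -1.87 and -0.91, and the relatives lie between -0.35 and 0.29 with sgKLHL14 and between -0.30 and 0.26 with sgCTRL.

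Of the 20 hnRNP relatives tested, 10 were lower and 2 higher in sgKLHL14 cells, and 6 were lower and 0 higher in sgCTRL cells, where 9 of them had an unadjusted p under 0.05. These are 50% lower and 10% higher in sgKLHL14 cells, against 19.3% and 19.7% of all genes, and 30% and 0% in sgCTRL cells, against 16.9% and 17.9%. The 30% called in sgCTRL cells is near the 34.8% of all genes called in either direction. HNRNPAB, an RNA-binding protein also known as CArG-binding factor A, had log2 levels of 13.04 and 12.93 with ibrutinib and 13.36 and 13.32 with DMSO in sgKLHL14 cells, a change of -0.35 (limma adjusted p = 8.55e-05). In sgCTRL cells it had 12.97 and 12.98 with ibrutinib and 13.30 and 13.25 with DMSO, a change of -0.30 (limma adjusted p = 0.000437). The treated libraries lay below the untreated ones with either guide.

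HNRNPC, which binds uridine tracts of nascent RNA, had 14.88 and 14.79 with ibrutinib and 15.17 and 15.13 with DMSO in sgKLHL14 cells, and 14.88 and 14.91 with ibrutinib and 15.25 and 15.12 with DMSO in sgCTRL cells. HNRNPD, known as AUF1 and for its part in the decay of AU-rich mRNA, had 13.81 and 13.65 with ibrutinib and 13.95 and 13.93 with DMSO in sgKLHL14 cells, and 13.71 and 13.76 with ibrutinib and 14.10 and 13.93 with DMSO in sgCTRL cells. HNRNPH3, of the group that binds runs of guanines, had 12.75 and 12.60 with ibrutinib and 12.96 and 12.98 with DMSO in sgKLHL14 cells, and 12.77 and 12.79 with ibrutinib and 13.00 and 13.00 with DMSO in sgCTRL cells. In these 3 genes no treated library reached an untreated one of the same guide. For called genes, here and in the other paragraphs, such separation adds no support to the call. HNRNPA3, HNRPDL and SFRS1, not called in sgCTRL cells, did not overlap by treatment there either. The log2 changes of HNRNPC, HNRNPD and HNRNPH3 were -0.31, -0.21 and -0.30 in sgKLHL14 cells and -0.29, -0.28 and -0.22 in sgCTRL cells, all past the threshold.

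HNRNPM, also a component of spliceosomes, changed by -0.25 in sgKLHL14 and -0.20 in sgCTRL cells, and HNRNPR by -0.22 and -0.17. HNRNPA1, HNRNPA2B1, HNRNPA3 and HNRNPUL1 passed in sgKLHL14 cells, at -0.21, -0.21, -0.20 and -0.19. In sgCTRL cells they changed by -0.12, -0.17, -0.10 and -0.14 and did not pass (limma adjusted p = 0.139, 0.0518, 0.196 and 0.0881). The difference in response passed for none of them, so the responses are not shown to differ. Many near-identical processed copies of HNRNPA1, among them HNRNPA1L2, can share its reads, so the level of HNRNPA1 is uncertain. HNRNPH1 and HNRNPH2, relatives of HNRNPH3, went the other way. HNRNPH1 had 14.49 and 14.48 with ibrutinib and 14.25 and 14.37 with DMSO in sgKLHL14 cells, and 14.53 and 14.57 with ibrutinib and 14.54 and 14.35 with DMSO in sgCTRL cells, where the libraries overlapped. HNRNPH2 had 12.84 and 12.77 with ibrutinib and 12.60 and 12.68 with DMSO in sgKLHL14 cells, and 12.87 and 12.84 with ibrutinib and 12.71 and 12.72 with DMSO in sgCTRL cells. Both rose by 0.17 in sgKLHL14 cells and passed there. In sgCTRL cells they rose by 0.11 and 0.14 and did not pass, and for neither did the difference in response pass.

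In the PTB family, whose members bind pyrimidine-rich RNA, PTBP1 and PTBP2 went down with ibrutinib and ROD1 did not pass. PTBP1, the form of most tissues, had 12.30 and 12.19 with ibrutinib and 12.54 and 12.50 with DMSO in sgKLHL14 cells, a change of -0.28 (limma adjusted p = 0.000968). In sgCTRL cells it had 12.36 and 12.35 with ibrutinib and 12.50 and 12.43 with DMSO, a change of -0.11 that did not pass (adjusted p = 0.163). The difference between these responses did not pass either (-0.17, adjusted p = 0.904), so the 2 are not shown to differ.

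PTBP2, known mainly from neurons, had 10.79 and 10.78 with ibrutinib and 11.06 and 11.09 with DMSO in sgKLHL14 cells, and 10.92 and 10.93 with ibrutinib and 11.12 and 11.14 with DMSO in sgCTRL cells. It changed by -0.29 and -0.21, and the treated libraries were below the untreated ones with either guide. ROD1, first named regulator of differentiation, had 12.51 and 12.60 with ibrutinib and 12.44 and 12.52 with DMSO in sgKLHL14 cells, and 12.64 and 12.72 with ibrutinib and 12.59 and 12.63 with DMSO in sgCTRL cells. Its changes were 0.07 (95% interval -0.05 to 0.20) and 0.07 (interval -0.06 to 0.19).

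The SR genes went in either direction. Of the 10 with an SRSF symbol, 2 were higher and 1 lower, the same 3 genes with either guide. That is 20% higher and 10% lower. Of all genes, 19.7% were higher and 19.3% lower in sgKLHL14 cells, and 17.9% and 16.9% in sgCTRL cells. The 30% called is below the 38.9% and 34.8% of all genes. SFRS6 (SRp55) had 13.11 and 13.10 with ibrutinib and 12.82 and 12.81 with DMSO in sgKLHL14 cells, and 13.09 and 13.09 with ibrutinib and 12.82 and 12.85 with DMSO in sgCTRL cells. It rose by 0.29 (limma adjusted p = 0.000288) and by 0.26 (limma adjusted p = 0.00106), and its libraries kept far apart by treatment. SFRS5 (SRp40) had 12.80 and 12.71 with ibrutinib and 12.64 and 12.54 with DMSO in sgKLHL14 cells, and 12.86 and 12.81 with ibrutinib and 12.67 and 12.66 with DMSO in sgCTRL cells, a rise of 0.16 and 0.17. SFRS4 (SRp75) had 10.85 and 10.71 with ibrutinib and 11.09 and 11.01 with DMSO in sgKLHL14 cells, and 10.82 and 10.85 with ibrutinib and 11.15 and 10.99 with DMSO in sgCTRL cells, a fall of 0.27 and 0.23 on the log2 scale.

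Of the 7 SFRS genes with other symbols, 0% passed in sgCTRL cells, against 34.8% of all genes. In sgKLHL14 cells 2 passed, both higher, which is 28.6%, against 38.9% of all genes. SFRS18 (PNISR), a nuclear speckle protein, had 11.60 and 11.70 with ibrutinib and 11.32 and 11.42 with DMSO there, a rise of 0.28 (limma adjusted p = 0.00222), and 11.66 and 11.74 with ibrutinib and 11.64 and 11.54 with DMSO in sgCTRL cells. SFRS14 (SUGP2), a protein with a G-patch domain, had 12.93 and 13.07 with ibrutinib and 12.78 and 12.87 with DMSO in sgKLHL14 cells, a rise of 0.18 (limma adjusted p = 0.0264), and 12.96 and 12.95 with ibrutinib and 12.88 and 12.85 with DMSO in sgCTRL cells. Neither passed in sgCTRL cells, and for neither did the difference in response pass.

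The TRA2 proteins bind purine-rich exon enhancers. TRA2A had 11.37 and 11.32 with ibrutinib and 11.27 and 11.24 with DMSO in sgKLHL14 cells, a change of 0.09 that did not pass (adjusted p = 0.283). In sgCTRL cells it had 11.43 and 11.40 with ibrutinib and 11.20 and 11.20 with DMSO, a rise of 0.21 (limma adjusted p = 0.0112). The difference between the responses did not pass (-0.13, adjusted p = 0.937). TRA2B had 13.05 and 12.99 with ibrutinib and 13.16 and 13.15 with DMSO in sgKLHL14 cells, and 13.01 and 13.01 with ibrutinib and 13.14 and 13.10 with DMSO in sgCTRL cells, with changes of -0.13 and -0.11 that did not pass (adjusted p = 0.0648 and 0.15).

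The SE of these changes in called relatives was 0.055 to 0.073, so the smaller ones lay only a few SE from 0. All of them rest on 2 libraries a group. In sgKLHL14 cells 9 of the 20 calls held whichever library was left out: HNRPLL, HNRNPAB, HNRNPC, HNRNPH3, HNRNPM, PTBP1, PTBP2, SFRS6 and SFRS18. Without replicate 1 of sgKLHL14 DMSO the calls of HNRNPD, HNRNPH1, HNRNPH2, HNRNPUL1, SFRS14 and SFRS4 were lost (adjusted p = 0.0514, 0.25, 0.164, 0.0777, 0.154 and 0.0503), and without replicate 2 those of HNRNPA2B1 (0.0604) and SFRS5 (0.196). Without replicate 1 of sgKLHL14 ibrutinib those of HNRNPH1, HNRNPH2, HNRNPUL1 and SFRS5 were lost (adjusted p = 0.121, 0.168, 0.121 and 0.206). Without replicate 2 of that group 12 members passed, and HNRNPA1, HNRNPA2B1, HNRNPA3, HNRNPD, HNRNPH1, HNRNPR, SFRS14 and SFRS4 did not (adjusted p = 0.0544, 0.0984, 0.0844, 0.207, 0.108, 0.0771, 0.271 and 0.1). Leaving out a sgCTRL ibrutinib library, which enters through the shared spread alone, also ended the calls of HNRNPH1, HNRNPH2, HNRNPUL1, SFRS14 and SFRS5 (adjusted p = 0.0773, 0.0606, 0.0503, 0.0514 and 0.0654 without replicate 1, and 0.0772, 0.0605, 0.0501, 0.0512 and 0.0653 without replicate 2).

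In sgCTRL cells 4 of the 12 calls held whichever library was left out: HNRPLL, HNRNPAB, HNRNPC and SFRS6. Without replicate 1 of sgCTRL ibrutinib 5 members passed, and HNRNPH3, HNRNPM, HNRNPR, PTBP2, SFRS4, SFRS5 and TRA2A did not (adjusted p = 0.0825, 0.147, 0.29, 0.105, 0.121, 0.226 and 0.103). Without replicate 2 the same 7 did not (adjusted p = 0.0518, 0.0522, 0.0868, 0.0947, 0.073, 0.109 and 0.0686). Without replicate 1 of sgCTRL DMSO those of HNRNPD, HNRNPM, HNRNPR, SFRS4 and SFRS5 were lost (adjusted p = 0.0583, 0.112, 0.226, 0.214 and 0.0881), and without replicate 2 those of PTBP2 (0.0638) and SFRS5 (0.109).

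Between the guides, HNRPLL was the 1 member of 43 that passed, which is 2.33%. Over all genes 2.35% passed in ibrutinib (1.57% higher, 0.781% lower) and 1.62% in DMSO (0.773% higher, 0.852% lower), so the share of members is close to that of all genes and the result is about HNRPLL alone. No relative passed in limma, with 1 at an unadjusted p under 0.05 in ibrutinib and 3 in DMSO, and none passed by voom on the recovered reads. The lowest adjusted p among relatives was 0.38 for PTBP2 in ibrutinib (-0.13) and 0.123 for SFRS18 in DMSO (-0.22). The 95% intervals of all 42 relatives lay between -0.27 and 0.26 in ibrutinib and between -0.36 and 0.32 in DMSO, while those of HNRPLL ran from -1.97 to -1.63 and from -1.01 to -0.66. In the difference between the ibrutinib responses likewise no relative passed in limma or by voom, where 0.0237% of all genes passed in limma. Of the relatives, 0 had an unadjusted p under 0.05, and their intervals lay between -0.35 and 0.37.

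**Figure D4:**
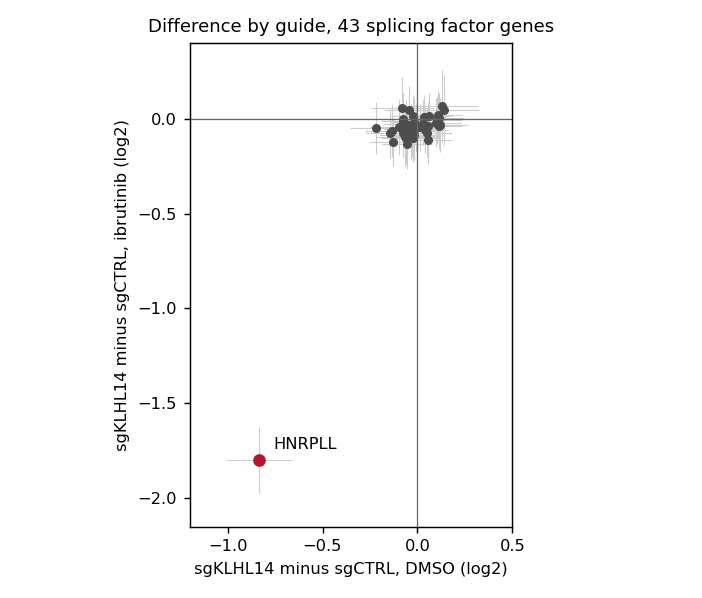
Difference sgKLHL14 minus sgCTRL (log2) in ibrutinib (vertical) against that in DMSO (horizontal) for the 43 genes, with 95% intervals from limma as thin lines. HNRPLL lies at -1.80 and -0.84, apart from the cluster of the 42 relatives around 0.

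Other genes of splicing were read from lists written with earlier results of these data known. Of 44 core spliceosome genes, 4 were higher and 17 lower with ibrutinib in sgKLHL14 cells (median log2 change -0.14) and 4 higher and 12 lower in sgCTRL cells (median -0.089). The shares called, 47.7% and 36.4%, stand beside 38.9% and 34.8% of all genes. PHF5A and BUD31, small proteins of the spliceosome, changed by -0.55 and -0.50 in sgKLHL14 cells and by -0.26 and -0.51 in sgCTRL cells. SNRPD1 and SNRPF, core proteins of the snRNPs, changed by -0.42 and -0.42 in sgKLHL14 cells and by -0.32 and -0.39 in sgCTRL cells, and SNRPA of U1 by -0.39 and -0.26. U2AF2, which binds the pyrimidine tract, rose by 0.24 and 0.41. Without the variance trend the 21 calls in sgKLHL14 cells became 12 and the 16 in sgCTRL cells 10. Without replicate 2 of sgCTRL ibrutinib the 16 calls in sgCTRL cells became 9.

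Of 39 other splicing regulators tested, 7 were higher and 8 lower in sgKLHL14 cells, and 8 higher and 4 lower in sgCTRL cells. The shares called, 38.5% and 30.8%, are close to those of all genes, 38.9% and 34.8%. MBNL2, a muscleblind protein, rose by 0.74 and 0.51, TIA1, which binds uridine-rich introns, by 0.40 and 0.39, and RBM5 by 0.31 and 0.29. RBM6 rose by 0.47 and 0.27, and CIRBP by 0.21 and 0.31. The 12 calls in sgCTRL cells became 5 without the variance trend, 7 without replicate 1 of sgCTRL DMSO, 6 without replicate 1 of sgCTRL ibrutinib and 5 without its replicate 2.

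Of 11 kinases and import factors of SR proteins, 5 were higher and 3 lower in sgKLHL14 cells, and 4 higher and 2 lower in sgCTRL cells. The 72.7% and 54.5% called rest on few genes and stand beside 38.9% and 34.8% of all genes. SRPK1, which phosphorylates SR proteins in the cytoplasm, changed by -0.43 in sgKLHL14 and -0.44 in sgCTRL cells. The nuclear kinases CLK4 and CLK1 rose by 0.49 and 0.32 in sgKLHL14 cells and by 0.38 and 0.35 in sgCTRL cells. DYRK1B rose by 0.50 and 0.72, and its call in sgKLHL14 cells was lost without replicate 2 of sgKLHL14 DMSO (adjusted p = 0.101) or replicate 1 of sgKLHL14 ibrutinib (0.0588). The 8 calls in sgKLHL14 cells became 4 without the variance trend, 4 without replicate 2 of sgKLHL14 DMSO and 5 without either sgKLHL14 ibrutinib library.

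Between the guides and in the difference in response, 0 genes of these 3 lists passed in limma. Of all genes, 2.35% passed between the guides in ibrutinib, 1.62% in DMSO and 0.0237% in the difference. The 0 is near those shares and is no result about these lists. At an unadjusted p under 0.05 there were 1 core, 2 other and 1 kinase or import gene in ibrutinib, 7, 4 and 2 in DMSO, and 3, 1 and 0 in the difference. The shares of all genes between the guides at that unadjusted p, and in the fits named next, were not counted. Without replicate 2 of sgKLHL14 DMSO, 3 core genes, 3 other regulators and 1 kinase or import gene passed between the guides in DMSO, and 2 core genes did with the replicate number as a block.

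The last list held 11 genes known as targets or partners of HNRNPLL or from the switch to plasma cells, and here some differed by guide. In ibrutinib 4 were higher in sgKLHL14 than in sgCTRL cells: XBP1 by 0.76, a transcription factor of secretory cells, ELL2 by 0.50, an elongation factor of plasma cells, IRF4 by 0.43 and SDC1, the gene of CD138, by 0.56. In DMSO XBP1 was higher by 0.38 and SDC1 by 0.54, and no gene of the list was lower with either treatment. That is 36.4% of the list in ibrutinib and 18.2% in DMSO, against 2.35% and 1.62% of all genes. This list too was written with earlier results of these data known, so its shares are no test of the list. Without the variance trend 1 of the 4 calls in ibrutinib held, that of XBP1, and those of ELL2, IRF4 and SDC1 did not (adjusted p = 0.0698, 0.0547 and 0.0785). The SDC1 call in ibrutinib was also lost without the filter on level (adjusted p = 0.105). Both calls in DMSO were lost without the filter (XBP1 at 0.0871, SDC1 at 0.175) and without the trend (0.175 and 0.158). The SDC1 call in ibrutinib was lost without replicate 1 or 2 of sgCTRL ibrutinib or replicate 1 of sgKLHL14 ibrutinib (adjusted p = 0.106, 0.21 and 0.208). In DMSO the XBP1 call was lost without replicate 1 of sgCTRL DMSO (0.146) or of sgKLHL14 DMSO (0.0888). The SDC1 call in DMSO was lost without any 1 of the sgCTRL DMSO libraries (0.0908 and 0.18), the sgKLHL14 DMSO libraries (0.292 and 0.053) or the sgCTRL ibrutinib libraries (0.0534 and 0.0527).

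With ibrutinib, 5 genes of that list were higher and 2 lower in sgKLHL14 cells, and 5 higher and 3 lower in sgCTRL cells. That is 63.6% and 72.7% of the list, against 38.9% and 34.8% of all genes. IRF4 fell by 0.57 and 0.88 on the log2 scale and CD44 by 0.49 and 0.65. XBP1 rose by 0.59 and 0.21, PRDM1 by 0.43 and 0.19, and PTPRC, the gene of the CD45 exons, by 0.35 and 0.33. ELL2 fell by 0.41 in sgCTRL cells and changed by -0.14 in sgKLHL14 cells, where it did not pass (adjusted p = 0.134). The 8 calls in sgCTRL cells became 5 without the filter on level, 5 without the variance trend, 5 without replicate 2 of sgCTRL DMSO, 5 without replicate 1 of sgCTRL ibrutinib and 4 without its replicate 2. In the difference in response 0 passed in limma, against 0.0237% of all genes, with 4 at an unadjusted p under 0.05.

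On the chromosome, HNRPLL is followed in the RefSeq order by GALM, which encodes a sugar mutarotase, and then by SFRS7, itself an SR gene. GALM had log2 levels of 6.68 and 7.06 in sgKLHL14 cells with ibrutinib, 7.69 and 7.43 in sgCTRL cells with ibrutinib, 7.64 and 7.52 in sgKLHL14 cells with DMSO and 8.24 and 8.47 in sgCTRL cells with DMSO, on 61 to 304 reads. The order of the groups was that of HNRPLL, except that the 2 middle groups overlapped. GALM changed with ibrutinib by -0.71 in sgKLHL14 cells and -0.80 in sgCTRL cells (limma adjusted p = 0.00162 and 0.000696), and between the guides by -0.69 in ibrutinib and -0.78 in DMSO (limma adjusted p = 0.0234 and 0.0141). Unlike for HNRPLL, its difference in response was 0.09 and did not pass (adjusted p = 0.992). Its guide call in ibrutinib was lost without replicate 1 of sgKLHL14 ibrutinib (adjusted p = 0.241) or of sgCTRL ibrutinib (0.262). In DMSO it was lost without replicate 1 of sgKLHL14 DMSO (0.0736) or either sgCTRL DMSO library (0.0664 and 0.133). Both guide calls were also lost without the filter on level (0.168 in ibrutinib and 0.179 in DMSO) and without the variance trend (0.168 and 0.183), and the one in ibrutinib with voom (0.0602). SFRS7 and ATL2, the neighbour on the other side, passed in no comparison. GEMIN6, next after SFRS7, passed as lower with ibrutinib with either guide. Its call in sgCTRL cells was lost without any 1 of the sgCTRL DMSO or sgCTRL ibrutinib libraries (changes of -0.26 to -0.21). Its call in sgKLHL14 cells was lost without replicate 2 of sgKLHL14 DMSO (-0.21) or replicate 1 of sgKLHL14 ibrutinib (-0.24). FAM82A1 (now RMDN2), beyond ATL2, passed as higher with ibrutinib in sgCTRL cells. That call was lost without the filter on level (0.80, limma adjusted p = 0.0713). It was also lost without replicate 1 of sgCTRL DMSO (change of 0.538) or replicate 2 of sgCTRL ibrutinib (0.665).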

How the data were processed

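RNA-seq of 8 TMD8 libraries was used. The submitters' processing notes name bcl2fastq, STAR, HTSeq and hg19, and the library kit was stranded and selected mRNA, per the labels' protocols. Versions, annotation and use of strand in counting are not given in these sources, so antisense and overlapping genes cannot be told apart. The authors deposited log2 normalised counts per gene, with a row of total reads that was kept out of the tests. Each value was a whole number of reads times a library factor (100.00% of values within 0.0006 log2, 1 read being worth 1.16 to 2.19), and 0 columns belonged to other samples. The 12682 genes with a mean log2 level of 4.028 or more, with 99.91% of a library's reads or more, were tested, and no pseudocount was used.

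The log2 values were fitted with 4 group means by limma 3.58.1 in R 4.3.3 (variance prior following the mean, 4 residual and 15 prior degrees of freedom), with Benjamini-Hochberg adjustment over all kept genes and a threshold of 0.05. Changes are on the deposited log2 scale. The fit was also run on simulated data with changes larger than those of the relatives, so that run does not check their calls. Named are HNRPLL, HNRNPL, the PTB and TRA2 genes, per comparison the 6 highest and 6 lowest called members, and per list the 4 smallest p. HNRNPM, HNRNPR, HNRNPA1, HNRNPA2B1, HNRNPA3, HNRNPUL1 and the neighbours of HNRPLL were added after their values were seen. The members and lists were chosen with earlier results of these data known, and HNRPLL was named before the tests as the gene to set against the others. Alternatives were other filters on level (none, and 100 reads), no variance trend, a robust prior, quantile and median scaling, a pseudocount of 16, voom with TMM factors on recovered reads, the replicate number as a block, and leaving out each library. Promoters and gene order came from RefSeq (GRCh38.p14), and all 44 members matched a current symbol. A further gene planned as a B cell marker is not reported here.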

Additional observations from a re-analysis of the deposited data

Results flagged for a closer look

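HNRPLL was flagged because its response to ibrutinib differed between the guides: the log2 change was -1.87 in sgKLHL14 cells and -0.91 in sgCTRL cells, and the test of the difference itself (-0.963) passed in limma with an adjusted p of 0.00133. The value was negative in all 18 alternatives, and the call was lost in 2 of them.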

How the results depend on the processing

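For members and lists alike, the share of all genes that passed in the alternative fits was not counted. Without the variance trend 11 members passed in sgKLHL14 cells and 7 in sgCTRL cells, and without the filter on level 12 passed in sgKLHL14 cells. Leaving out 1 library gave 12 to 20 and 5 to 14. Of the 30 calls of relatives, 0 turned direction under any setting. All 30 held with the filter at 100 reads, the robust prior, median scaling, the larger pseudocount and the replicate block, 27 with quantile scaling, 25 with voom, 19 without the filter, 15 without the trend and 18 to 28 without 1 library. In the difference between the responses HNRPLL stayed at -0.963 but was not called without the filter (adjusted p = 0.0609) or without the trend (adjusted p = 0.155), which left 0 members called. The cause was not tested. Uncalled values near 0 changed sign. Leaving out 1 library gave HNRNPL -0.002 to 0.108 for ibrutinib with sgCTRL and -0.027 to 0.009 between guides in ibrutinib. It gave TRA2B -0.022 to 0.036 between guides in ibrutinib and -0.057 to 0.002 for the difference in response, and ROD1 -0.037 to 0.050 for that difference. TRA2B between guides in ibrutinib was -0.015 with quantile scaling, and ROD1 in the difference -0.001 with voom.

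The labels do not say what a replicate number shares, and libraries with the same number did not deviate together (correlations -0.061 to 0.106). With the replicate block 21 members passed for ibrutinib in sgKLHL14 cells, 13 in sgCTRL cells and 1 in each other comparison, and 2 core spliceosome genes, both higher, passed between the guides in DMSO, against 0 without the block. HNRPLL then had adjusted p = 2.29e-15, 1.65e-09, 2.39e-14, 2.48e-07 and 0.000111 (limma, in the order ibrutinib with sgKLHL14 and with sgCTRL, guides in ibrutinib and in DMSO, difference in response). HNRPLL minus HNRNPL gave p = 0.125 in an exact permutation test within pairs, the smallest possible, and p = 0.0556 within guides, also the smallest possible.

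The 2 libraries a group and 116 to 152 HNRPLL reads in the lowest group limit precision. Intervals cover the spread between these libraries.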
